A study of Mus musculus with 7 samples.

Results

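Wide unmethylated domains are stretches of several kilobases in which almost no CpG cytosine carries a methyl group. They were selected on the deposited methylation values of mouse dermal fibroblasts: each of the 19 autosomes was divided into bins of 1000 bases, and a domain was a run of at least 4 adjacent bins that each held at least 10 listed CpG cytosines with a mean of 10% or less. The rule gave 438 domains, of 14297 runs of any length. They covered 2.21 Mb, or 0.0894% of the autosomes. Because the methylation values chose them, low methylation inside a domain is a description and not a finding. Expression and factor binding were not used by the rule.

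In mammalian somatic cells most CpG cytosines are methylated, and the unmethylated exceptions are mostly CpG islands at gene starts. Most islands are short and belong to genes that many tissues use. Wider unmethylated domains, often called methylation valleys or canyons, are known for holding genes of developmental regulators, which Polycomb complexes keep silent in most tissues, and also some highly active genes. No Polycomb mark was measured in these libraries.

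The cells were primary dermal fibroblasts of female FVB/N mice, kept for 8 days in DMEM/F12 medium with 10% serum. RNA was sequenced from 1 untreated culture and from 1 culture given thapsigargin for 3 h. Thapsigargin inhibits the SERCA pumps that fill the endoplasmic reticulum with calcium, and the resulting stress leads cells to make the transcription factor ATF4. Chromatin was immunoprecipitated with an antibody to CEBPB from untreated and from thapsigargin-treated cells and with an antibody to ATF4 from thapsigargin-treated cells, with 1 library each, and DNA of fibroblasts for which the labels name no thapsigargin gave 2 bisulfite libraries. The labels give neither the age nor the number of the mice.

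The bisulfite values were deposited as 1 pooled percent per cytosine, without coverage, so the depth behind each percent is unknown and the spread between the 2 libraries was not analysed here. Over all autosomes 37019563 CpG cytosines had a value, with a mean of 66.48%. Expression was given as FPKM, fragment counts scaled to transcript length and library size. The level of the deposited confidence limits is not stated. If they lie 2 counting standard errors from each value, gene entries with status OK held roughly 53914231 (untreated) and 78941806 (thapsigargin) fragments. The cultures also held RNA typical of other cells: all 8 measured macrophage and leukocyte markers were at FPKM 1 or more in both libraries, with a summed level of 1168 untreated and 1200 after thapsigargin, against 18620 and 5496 for 12 fibroblast markers. Most of the untreated fibroblast sum was Col1a1, at 6473 and 884, Col1a2, at 3957 and 883, and Col3a1, at 3000 and 562. Postn was at 1891 and 1058 and Vim at 1533 and 1223. Thy1, at 132 and 168, was the only fibroblast marker that was higher after thapsigargin. Most of the macrophage sum was Lyz2, at 880 and 951. Cd74 was at 143 and 5.61 and Cd14 at 14.8 and 111. The 8 keratinocyte markers summed to 30.0 and 1.86, the 7 melanocyte and Schwann cell markers to 38.4 and 9.53, the 6 endothelial markers to 24.2 and 11.3, and the 7 muscle and pericyte markers to 1195 and 529. Most of the muscle and pericyte sum was Acta2, at 1124 and 475, and most of the endothelial sum was Eng, at 18.3 and 9.31. Of the endothelial markers 2 were at FPKM 1 or more untreated and 1 after thapsigargin. No marker of these lists was at 0 in either library. Their part in the results below was not tested. In such bulk libraries, fewer cells of a type and less RNA per cell cannot be told apart, and a percent of methylation is an average over all cells.

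Short stretches of the mm9 reference show what the domains look like at the level of single bases, read on the plus strand with every CpG in capitals. The longest domain, 17 kb at chr5:120874001-120891000, holds Lhx5, a LIM homeobox gene of the developing brain. The stretch just outside its left boundary, chr5:120873771-120873920, was taken because methylation steps down within it, although it does not end at the boundary. Its cytosines were at 93% and 95% at the CpG of base 26, 83% and 100% at base 41, 58% and 67% at base 73, 46% and 50% at base 90, and 6% and 25% at base 136 (plus and minus strand, bases counted from 1). The next 4 cytosines of the Lhx5 flank, between this stretch and the domain, were again at 82%, 100%, 71% and 67%, and the first ones inside were at 0. Near the middle of the same domain, at chr5:120882471-120882590, the 8 listed cytosines had a mean of 1.5% and 4 of them were at 0. The longest domain with an expressed gene is that of Tnrc18, a chromatin-associated protein gene; at its centre, chr5:143579941-143580060, all 15 listed cytosines were at 0. The Lhx5 and Tnrc18 centres were chosen after their values were seen.
Lhx5 left flank: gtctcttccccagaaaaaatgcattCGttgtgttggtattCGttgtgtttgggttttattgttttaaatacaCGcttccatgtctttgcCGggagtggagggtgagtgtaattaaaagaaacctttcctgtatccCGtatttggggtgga
Lhx5 centre: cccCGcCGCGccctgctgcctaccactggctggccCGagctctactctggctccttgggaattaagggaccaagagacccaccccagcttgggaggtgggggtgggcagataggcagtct
Tnrc18 centre: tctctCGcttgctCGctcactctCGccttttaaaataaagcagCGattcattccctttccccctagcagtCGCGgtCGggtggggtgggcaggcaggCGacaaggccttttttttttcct

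The right edge of the 15-kb domain with the neighbouring homeobox genes Hmx3 and Hmx2 was less steep. In the stretch at chr7:138700761-138700910, beyond the domain's end, the 4 cytosines on the left side had a mean of 9.25% and the 6 on the right side 44.7%.
Hmx3 and Hmx2 right edge: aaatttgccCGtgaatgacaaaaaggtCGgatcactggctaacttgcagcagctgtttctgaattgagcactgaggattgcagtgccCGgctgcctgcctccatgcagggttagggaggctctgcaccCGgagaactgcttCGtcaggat

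Binding inside domains is shown by the centre of a strongly scored peak of each list. For ATF4 this was the peak at the promoter of Ddit3, which encodes the stress factor CHOP; the stretch chr10:126727516-126727616 held 16 CpGs, and 31 of its 32 listed cytosines were at 0. It contains the CEBP-ATF composite sequence TGATGCAA on the minus strand, starting at base 33. For CEBPB in untreated cells it was the peak upstream of Myc, the growth-promoting transcription factor gene, at chr15:61815042-61815142, with 2 CpGs and all 4 cytosines at 0. For CEBPB after thapsigargin it was the peak before Setd5, a chromatin regulator gene, at chr6:113026137-113026237, with 4 CpGs and all 8 cytosines at 0; the centres of the 2 domain peaks with higher scores in that list overlap annotated exons and are not shown. The Myc and Setd5 stretches held none of the 4 sequences searched for, which are given with the peaks.
ATF4 at Ddit3: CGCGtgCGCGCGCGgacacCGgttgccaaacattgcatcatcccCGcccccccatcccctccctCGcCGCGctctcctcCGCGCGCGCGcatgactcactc
CEBPB untreated at Myc: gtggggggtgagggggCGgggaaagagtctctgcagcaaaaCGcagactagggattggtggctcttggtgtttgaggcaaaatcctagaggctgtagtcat
CEBPB thapsigargin at Setd5: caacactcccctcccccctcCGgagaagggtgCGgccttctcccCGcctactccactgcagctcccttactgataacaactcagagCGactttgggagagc

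Most domains were only just wide enough. Of the 438, 248 were 4 kb long and 92 were 5 kb long; 37 reached 8 kb and 18 reached 10 kb. The median domain held 483 listed cytosines, had a mean of 2.0% (range 0.0646% to 7.82%) and had 73.5% of its cytosines at exactly 0 (range 18.1% to 99.1%). Domains were dense in CpGs, with a median of 51.9 CpGs per kb against 8.51 over the autosomes, and their median GC content was 56.3% against 41.9%. Runs of 1 to 3 bins had medians of 54 CpGs per kb and 57.3% GC, so this is not particular to the domains. In domains of 8 kb or more the median was 40.3 CpGs per kb. Chromosome 19 had the most domains for its length, 0.408 per Mb, and chromosome 16 the fewest, 0.0814 per Mb.

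The boundaries depend on the limit of 10%. The highest bin inside a domain had a mean of 10.0%, and 64 domains held a bin above 9%. Just outside, the lowest flanking bin with enough cytosines had a mean of 10.03%, and 267 of 800 such flanking bins had a mean between 10% and 20%. Of the 876 flanking bins, 76 held fewer than 10 cytosines. The 1002 runs of 3 bins are the nearest non-members in length. In 22 places neighbouring domains were separated by at most 10 bins, and 8 pairs lay on either side of a single bin that passed 10%. Those 8 lay at Lhx4, Shh, Sox14, Nr2e1, Onecut3, Sox21 and Pax2, all genes of developmental regulators or signals, and between AI854517 and Polg.

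Genes began in most domains. A start of a gene matched to the expression tables lay in 380 domains: 315 held 1 gene, 62 held 2 and 3 held 3. In all, 444 genes began in a domain, 403 of them coding, which is 2.13% of the 20858 autosomal genes measured. Only 51 genes lay wholly inside. Among 303 domains with 1 coding start, the domain reached a median of 1.7 kb upstream and 2.79 kb downstream of it. Of the 58 domains without a matched start, 22 overlapped a coding gene and 40 lay within 10 kb of a coding start. The 4 domains with the highest means were of this kind, at 6.46% to 7.82%, and their nearest coding starts were those of Mnx1, Lbx1, Onecut2 and Dlx5, all homeobox genes. The plan was to name more of the highest means than these 4.

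The 10 longest domains, 12 to 17 kb, were domains of nervous system and muscle regulators, and none of their genes reached FPKM 1. Lhx5, Fezf1, a zinc finger gene of forebrain development, and Foxb1, a forkhead gene of the hypothalamus, were at 0 in both libraries. Hmx3 and Hmx2, regulators of inner ear and hypothalamus, were at 0 and 0.029 untreated and at 0.241 and 0.014 after thapsigargin. Lbx1, a regulator of migrating muscle precursors, was at 0.086 untreated and 0.142 after thapsigargin, and Pax7, the paired-box gene of muscle stem cells, at 0.081 and 0.003. Skor1, a transcriptional corepressor gene of the nervous system, was at 0.017 and 0.029, Pou4f1, a sensory neuron factor, at 0.064 and 0.035, and Nkx2-2, a spinal cord and pancreas factor, at 0.016 and 0.004. The tenth of these domains lay beside Onecut1 and held only a non-coding gene model at 0. All 10 had means between 1.85% and 3.85%.

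**Figure D1:**
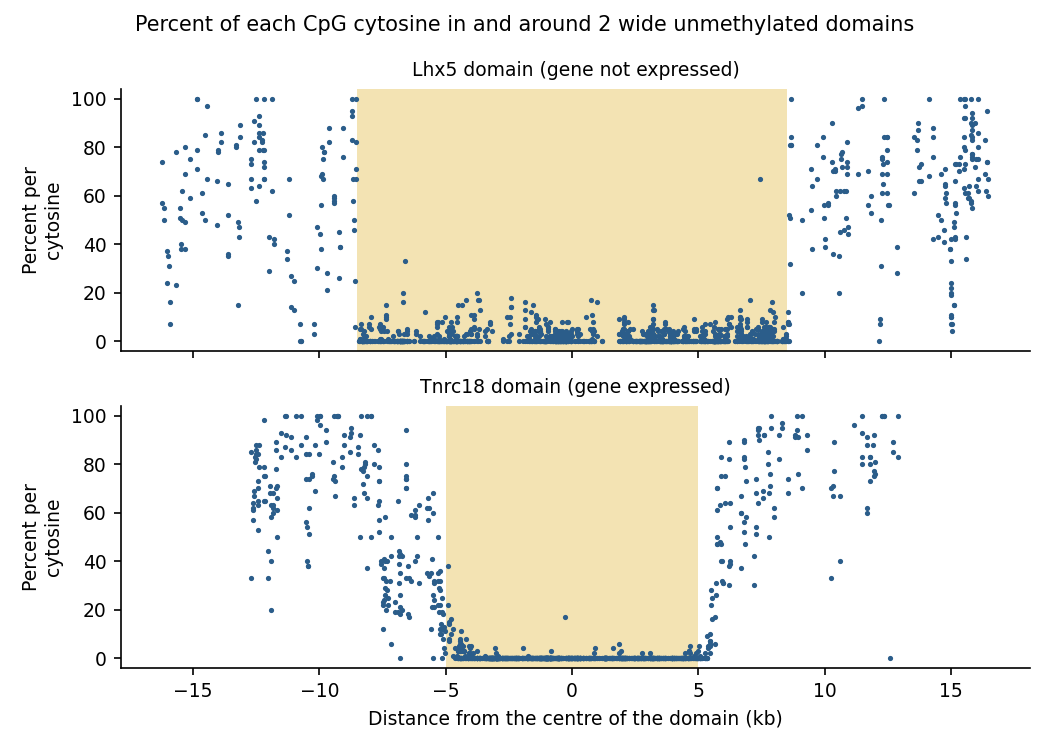
Percent of methylation of each listed CpG cytosine (vertical axis) against distance from the centre of the domain in kb (horizontal axis) for the Lhx5 domain (top, 17 kb) and the Tnrc18 domain (bottom, 10 kb). Each point is 1 cytosine and the shaded band is the domain; the Lhx5 domain, with a mean of 1.85%, has 59.2% of its cytosines at 0, and the Tnrc18 domain, with a mean of 0.328%, has 93.7% at 0.

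The wider the unmethylated run at a gene's start, the smaller was the share of genes expressed, except between 1 and 2 bins. Untreated, 79.8% of genes starting in a run of 1 bin were at FPKM 1 or more, 84.1% in runs of 2 bins, 75.7% in runs of 3, 71.8% in runs of 4 (183 of 255), 53.0% in runs of 5 to 7 (79 of 149) and 17.5% in runs of 8 or more (7 of 40). Over all domains this was 269 of 444 genes, or 60.6% (95% Wilson interval 56.0% to 65.0%), where the background over all genes was 54.2%. After thapsigargin it was 257 genes, or 57.9% (53.2% to 62.4%), with a background of 50%. The background joins genes of very different kinds: 81.2% of genes starting in runs of 1 to 3 bins and 19.3% of genes with no run at the start were at FPKM 1 or more untreated. The median untreated FPKM was 4.16 for genes starting in domains, 8.03 for runs of 1 to 3 bins and 0 for domains of 8 kb or more.

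**Figure D2:**
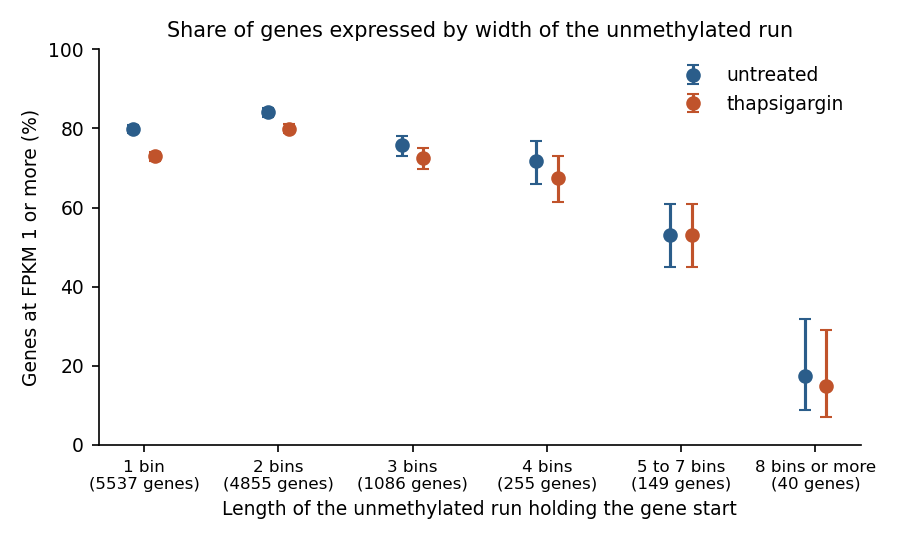
Percent of genes at FPKM 1 or more (vertical axis) by the length of the unmethylated run at the gene's start (horizontal axis, with the number of genes), in the untreated and the thapsigargin library. Points are shares in 1 library and bars are 95% Wilson intervals, which cover counting error only; the untreated share is 84.1% for runs of 2 bins and 17.5% for runs of 8 bins or more.

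Low values were the larger difference from shorter runs. Under FPKM 0.1 were 130 of the genes starting in domains, or 29.3%, against 9.10% of genes starting in runs of 1 to 3 bins. At FPKM 50 or more were 45, or 10.1%, near the 9.14% of those runs, and 2.5% of genes in domains of 8 kb or more. Domains were divided by their genes: in 136 domains every gene was under FPKM 1 in both libraries (not expressed), and in 244 at least 1 gene reached it (expressed). Of the 37 domains of 8 kb or more, 27 were not expressed and 7 were expressed.

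Domains without expressed genes carried more residual methylation. Their median mean was 2.67% (quartiles 2.17% and 3.61%) against 1.19% (0.583% and 2.04%) in expressed domains, and their median share of cytosines at 0 was 55.4% against 86.7%. Their inner bins, away from the edges, had medians of 2.26% and 0.295%. The same order was seen at equal width: 2.66% against 1.09% in domains of 4 kb, 2.57% against 1.12% in those of 5 kb, 3.09% against 1.7% in those of 6 kb and 2.37% against 1.77% in the 13 of 7 kb. It was seen as well in shorter runs, at 2.34% against 1.24% in runs of 3 bins, so it is not particular to the domains. Domains without expressed genes also held fewer CpGs, 45.6 against 57.6 per kb. Over the 380 domains with a matched gene, the Spearman correlation of the highest untreated FPKM was -0.52 with the mean percent, 0.65 with the share of cytosines at 0 and 0.22 with CpGs per kb. All these values share the same pooled bisulfite data and the same RNA library, and the methylation values are those that chose the domains. No test was therefore made, and a few cells that carry methylation and a low level in every cell cannot be told apart.

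The surroundings differed between the same sets. In the first bin outside, the mean was 43.8% for expressed and 30.8% for not expressed domains, and in the second 63.4% and 41.3%. By 5 kb the expressed domains had reached 69.3%, close to the 71.0% around runs of 2 bins, while the others were at 48.1%. At 20 kb the values were 71.6%, 62.9% and 71.9% for expressed domains, domains without expressed genes and runs of 2 bins. Methylation of neighbouring domains and runs is part of these averages.

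**Figure D3:**
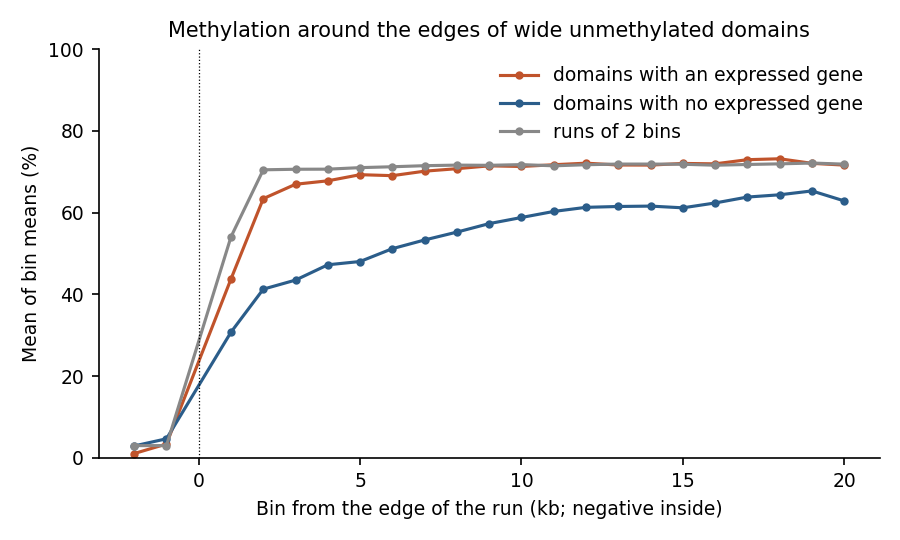
Mean of the bin means in percent (vertical axis) by distance from the edge of the run in kb (horizontal axis, negative inside), with both edges of each run pooled, for 244 expressed domains, 136 domains without an expressed gene and 4809 runs of 2 bins. The line of domains without an expressed gene stays lowest outside, at 48.1% at 5 kb against 69.3% for expressed domains.

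How the domain lay on the gene differed as well. Where a domain held 1 coding start, it reached a median of 2.71 kb downstream of it in 191 expressed domains and 3.26 kb in 112 domains without expressed genes. The genes without expression were shorter, with medians of 9.32 kb against 24.9 kb. The domain covered 29.5% of the gene in domains without expression and 10.7% in expressed ones, and it held the whole gene in 23 (20.5%) and 13 (6.81%) cases.

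Developmental regulators were common among the members. The 7 lists of developmental genes held 296 measured genes, which is 1.42% of all genes; 95 of them began in a domain, and they made up 21.4% of the genes starting there. A domain with such a gene was seen in 32 of 214 domains of 4 kb that had a matched start (15%), 41 of 132 of 5 to 7 kb (31.1%) and 20 of 34 of 8 kb or more (58.8%). Untreated, 27 of the 95 developmental genes (28.4%) and 242 of the 349 other genes (69.3%) were at FPKM 1 or more. Over the whole lists, in domains or not, 24 of 85 homeobox genes outside the Hox clusters were at that level. So were 8 of 27 Pax, Sox and Pou genes, 12 of 34 basic helix-loop-helix genes and 14 of 31 forkhead and T-box genes. For zinc finger and nuclear receptor genes it was 17 of 39, for secreted signals 17 of 41 and for Hox genes 24 of 39. These shares include the list members in domains and are not shares of list genes outside domains. Whether low expression of list members is particular to the domains was not tested. The lists were chosen with earlier results of these data known.

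By family, 33 of 85 homeobox genes outside the Hox clusters began in a domain, and 7 of these were at FPKM 1 or more untreated. The highest were Irx1 at 57.9 untreated and 33.7 after thapsigargin, Irx2 at 19.3 and 16.5, Meis2 at 8.35 and 4.36, and Emx2 at 8.22 and 15.6. These are patterning factors, and Meis2 is a cofactor of Hox proteins. Pax, Sox and Pou genes had the largest share, 14 of 27. Of these Sox4, a factor of many embryonic progenitors, was at 64.0 and 14.5 (54.6% of its exons overlap other gene models), Sox2, a factor of pluripotent and neural cells, at 2.58 and 0.752, and Pou3f3, a neural factor, at 2.37 and 2.11, and the other 11 were under FPKM 1. Of 39 zinc finger and nuclear receptor genes 17 began in a domain, among them Ebf1, a mesenchymal and B cell factor, at 30.1 and 3.81, Runx1, a blood and mesenchymal factor, at 12.6 and 39.8, and Nr2f2, an orphan receptor, at 6.83 and 4.50.

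Of 34 basic helix-loop-helix genes 13 began in a domain. Twist1, a mesenchyme factor, was at 94.0 and 89.6, Hes1, a Notch target, at 40.4 and 22.4, and Id2, an inhibitor of the family, at 30.3 and 87.8, and the other 10 were under FPKM 1. Of 31 forkhead and T-box genes 5 began in a domain. Tbx15, a mesenchymal T-box gene, was at 47.1 and 67.9, and Foxd3, a neural crest factor, was at 11.6 and 1.75. Sox10, a marker of melanocytes and Schwann cells, stood at 23.4 and 4.31 beside Foxd3, and the part of such cells was not tested. Foxd3 was the only listed developmental gene expressed in a domain of 8 kb or more, and there the other 19 domains with a listed gene had no expressed gene.

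Among the secreted signals 11 of 41 genes began in a domain. Slit2, a guidance cue, was at 61.1 and 16.2, Wnt5a, a Wnt ligand of mesenchyme, at 31.9 and 8.03, Fst, an activin inhibitor, at 4.23 and 9.33, and Nog, a BMP inhibitor, at 2.86 and 12.4. Only 2 of 39 Hox genes began in a domain, the neighbours Hoxb8 at 4.19 and 3.05 and Hoxb7 at 4.34 and 1.89; 27 others began in shorter runs. Exons of these neighbours overlap by 26.2% of Hoxb7 and 40.4% of Hoxb8, so their levels are uncertain. Of 17 Polycomb group genes 1 began in a domain, Jarid2, at 3.52 and 8.52. Of 13 housekeeping genes the only one was Tbp, at 8.24 and 9.26, which shares its domain with Psmb1. Vim and Pdgfra were the only ones of 12 fibroblast markers, and none of the measured markers of other cell types began in a domain.

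The most highly expressed genes of domains included structural and growth-control genes of fibroblasts. Vim, the intermediate filament of mesenchymal cells, was at 1533 untreated (deposited confidence limits 1526 and 1541) and 1223 after thapsigargin (1219 and 1228). Marcks, an actin-binding substrate of protein kinase C, was at 289 and 96.5, and Cdh11, a mesenchymal cadherin, at 261 and 76.4. Gas1, a growth arrest gene, was at 166 and 45.3, and Psmb1, a proteasome subunit, at 170 and 60.3. Pcbp1, an RNA-binding protein, was at 163 and 205, and Hnrnpa2b1, a splicing factor, at 159 and 68.0. Pdgfra, the receptor of platelet-derived growth factor and not one of the 10 highest, was at 147 and 43.7. It had the widest domain of any gene above FPKM 50, 9 kb with a mean of 2.39%. Actg1 (cytoplasmic actin, 759 and 31.8), Cfl1 (an actin-severing protein, 500 and 620) and Ptma (prothymosin, 314 and 131) completed the 10 highest. Their levels are uncertain, because 97.4%, 81.0% and 100% of the 100-base windows of their transcripts have a near-identical copy elsewhere in mm9.

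Thapsigargin was compared with no treatment over 1 library each, so differences describe these libraries and have no replicate check. A difference of 1 or more on log2(FPKM + 1) was counted among genes that reached FPKM 1 in at least 1 of the libraries; this scale understates the change of low genes. Of 276 such domain genes, 32 were higher after thapsigargin (11.6%) against a background of 5.93% of 11621 genes, and 80 were lower (29.0%) against a background of 28.3%. The median difference was -0.49 for domain genes and -0.52 for all genes. Centring on the median of all genes gave 52 higher and 38 lower domain genes (18.8% and 13.8%), with 13.3% and 12.9% over all genes; the share of higher genes among those counted was 28.6% before and 57.8% after centring.

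Genes in domains of 5 to 7 kb accounted for most of the higher ones. There 20 of 83 were higher (24.1%), against 12 of 186 in domains of 4 kb (6.45%), 0 of 7 in domains of 8 kb or more and 4.82% of genes starting in runs of 1 to 3 bins. The density of exon junctions, which follows how often a transcript is spliced, moved with the direction. Its median was 1.37 per kb of transcript for the higher domain genes, 3.15 for the lower ones and 2.17 for all of them, and 3.58 for all expressed genes. Among genes with fewer than 1 junction per kb, 18.1% in domains and 12.9% in runs of 1 to 3 bins were higher, and with 1 to 3 junctions 15.2% and 5.88%. With 3 to 6 junctions the shares were 2.50% and 3.15%, and with 6 or more 0 of 15 genes and 1.42%. Lower were 20.8% in domains and 12.5% in those runs with fewer than 1 junction, and 22.2% and 15.5% with 1 to 3. With 3 to 6 junctions 41.25% and 29.1% were lower, and with 6 or more 9 of 15 genes and 59.0%. The part of splicing in these differences was not tested.

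Of the 8 largest increases among genes with status OK in both libraries, 3 belong to the list of stress and immediate early genes. Nr4a2, an orphan nuclear receptor of that list, was at 3.34 untreated and 58.7 after thapsigargin, a difference of 3.78 on the log2 scale. Gadd45b, a stress-induced growth arrest gene, was at 37.0 and 486 (3.68), Klf10, an early TGF-beta target, at 10.8 and 131 (3.48), and Ddit3, also listed, at 82.9 and 735 (3.13). Nr4a3, a listed relative of Nr4a2, was at 0.785 and 14.3 (3.10), Vgf, a secreted neuropeptide precursor, at 0.165 and 8.54 (3.03), Nfil3, a bZIP repressor, at 24.2 and 203 (3.02), and Wnt11, a Wnt ligand, at 0.929 and 12.7 (2.83). Myc was listed at 12.9 and 138, but the deposited status of the second value was failed. In each of these genes the deposited confidence limits of the libraries did not overlap, apart from Myc, whose lower limit after thapsigargin was 0.

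Of 35 stress and immediate early genes 11 began in a domain, and 9 of these were higher and none lower, with a median difference of 1.68. Of the 9, Myc rests on the thapsigargin value with failed status. The others included Junb at 76.1 and 539, Ier2 at 86.2 and 260, and Jun at 30.1 and 75.8. Of the 24 that began outside domains 14 were higher and 1 was lower, with a median of 1.18. The list was chosen with results of these libraries known, so its direction is not independent evidence.

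**Figure D4:**
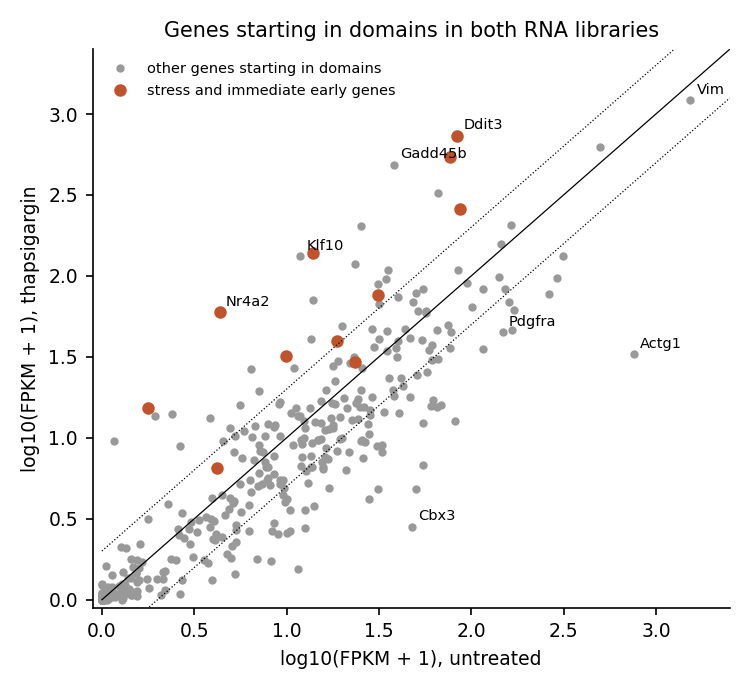
log10(FPKM + 1) in the thapsigargin library (vertical axis) against the untreated library (horizontal axis) for the 444 genes starting in domains; each point is 1 gene, and larger points are the 11 stress and immediate early genes. The solid line marks equal values and the dotted lines a difference of 1 on the log2 scale; 32 genes lie above the upper and 80 below the lower line among those that reached FPKM 1, and Ddit3 is at 82.9 and 735.

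The largest decreases included 2 genes whose copies make them uncertain. Actg1 differed by -4.53 and Cbx3, a heterochromatin protein at 46.6 and 1.83, by -4.07; 86.1% of the windows of Cbx3 have a near-identical copy elsewhere. Chd3, a chromatin remodeller, was at 48.9 and 3.86 (-3.36), and Ssbp4, a single-stranded DNA-binding protein, at 54.0 and 5.83 (-3.01). Cbln1, a secreted synapse organiser, was at 10.5 and 0.554 (-2.88), with 67.5% of its exons overlapping a further gene model annotated as Cbln1, Ebf1 at 30.1 and 3.81 (-2.70), and Fzd2, a Wnt receptor without introns, at 80.6 and 11.8 (-2.68). Ubl5, a ubiquitin-like splicing protein, was at 27.0 and 3.21 (-2.74), and 54.5% of its exons overlap exons of Fbxl12.

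Factor binding was read from the peak lists that the authors called in each library. Domains overlapped a CEBPB peak of untreated cells in 44 cases, 10.0% (95% Wilson interval 7.57% to 13.2%), against a background of 4.54% of all runs, and a CEBPB peak after thapsigargin in 31, 7.08% (5.03% to 9.87%), against 3.34%. For ATF4 it was 212 domains, 48.4% (43.8% to 53.1%), near the background of 46%. Domains are longer than other runs, and per Mb the order was the reverse: 21.3, 14.5 and 121 peaks in domains against 29.8, 21.9 and 337 in runs of 1 to 3 bins. Domains held 0.651% and 0.418% of the autosomal CEBPB peaks of untreated and treated cells and 2.72% of the ATF4 peaks. Both CEBPB lists had a peak in 18 domains, all 3 lists in 13, and no list in 204.

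Peaks were fewer where genes were not expressed. CEBPB peaks of untreated cells were found in 3 of 136 domains without expressed genes (2.21%) and 39 of 244 expressed ones (16.0%), those after thapsigargin in 2 (1.47%) and 28 (11.5%), and ATF4 peaks in 45 (33.1%) and 153 (62.7%). By the highest untreated FPKM in the domain, the share with an untreated CEBPB peak was 1.82% under FPKM 0.1, 10.8% from 1 to 10 and 20% at 50 or more, and the share with an ATF4 peak was 34.5%, 59.0% and 66.7%. The same split was seen in runs of 2 bins, where ATF4 peaks lay in 44.8% of runs without and 63.1% of runs with an expressed gene. Of the ATF4 peaks in domains 67.8% lay within 1 kb of a coding start. For CEBPB it was 22 of 47 peaks of untreated cells (46.8%) and 16 of 32 of treated cells (50%). Distances were taken for domain peaks only, so whether these shares are particular to domains was not tested. Of all autosomal peaks, 73.5% for ATF4 and 9.19% and 6.33% for untreated and treated CEBPB lay in unmethylated runs of any length.

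**Figure D5:**
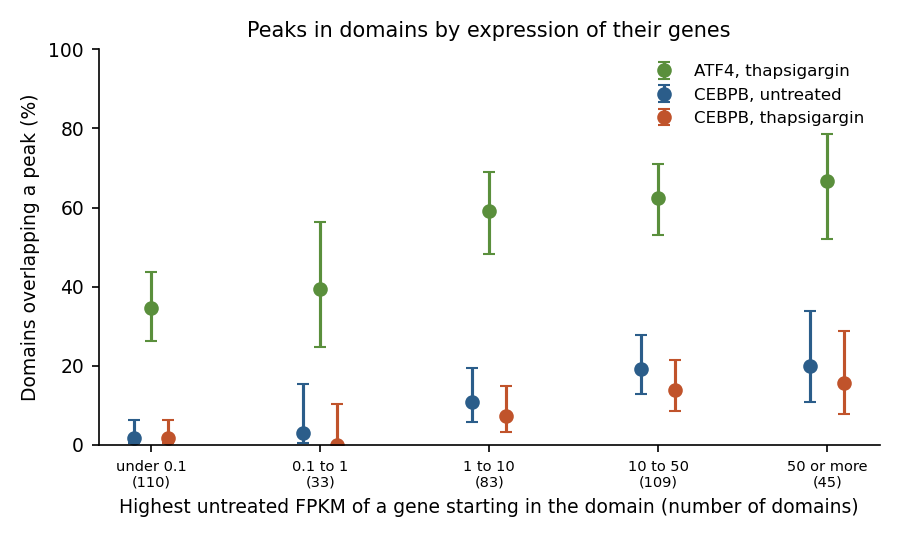
Percent of domains that overlap a peak (vertical axis) by the highest untreated FPKM of a gene starting in the domain (horizontal axis, with the number of domains), for the 3 peak lists. Points are shares and bars 95% Wilson intervals, which cover counting error only; the ATF4 share is 34.5% under FPKM 0.1 and 66.7% at 50 or more.

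Genes whose domain held an untreated CEBPB peak were higher after thapsigargin in 11 of 45 cases (24.4%), and the others in 21 of 231 (9.09%). For ATF4 this was 25 of 173 (14.5%) and 6.80% of the others, and for CEBPB after thapsigargin 4 of 36 (11.1%) and 28 of 240 (11.7%). The background was 5.93% of all expressed genes and 4.82% of those starting in runs of 1 to 3 bins. The split by peak is given for domain genes only, so whether it is particular to domains was not tested. Scores rank peaks only within a list. The highest ATF4 scores inside domains were those at Ddit3 (68.51, rank 36 of 9833 autosomal peaks), at Ppp1r15b, an eIF2alpha phosphatase subunit (67.56, rank 39), and at a domain near Cdkn1b, a cell cycle inhibitor (32.32, rank 112). For CEBPB after thapsigargin they were those at Ier2 (28.49, rank 209), Ppp1r15b (26.50) and Setd5 (21.48), and for CEBPB in untreated cells those at Myc (885.62, rank 6), Ext1, a heparan sulfate polymerase (482.28), and Ier2 (480.49). Nfil3 had 3 peaks of the untreated CEBPB list in its domain and none of the list after thapsigargin. These CEBPB lists are unlike, with median peak widths of 465 bases untreated and 172 after thapsigargin and median scores of 83.75 and 5.9. Absence from a list is therefore not a loss of binding, which was not tested. Ppp1r15b itself was at 18 and 28.7.

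Exact matches to 4 sequences were searched on both strands. TTGCGCAA, the palindromic CEBP site, was in the first 4 kb of 2.74% of domains against 0.333% of all autosomal windows of that length. Per Mb it was at 5.88 in domains, 4.50 in runs of 1 to 3 bins and 0.834 in the windows. TGACGTCA, the palindromic CRE site, was in 8.45% against 2.25%, but per Mb it was less frequent in domains than in runs of 1 to 3 bins, 18.6 against 32.6. The CEBP-ATF composite TGATGCAA was in 6.39% of domains against 12% of windows, and its variant CGATGCAA, which holds a CpG, in 3.42% against 3.88%. Per Mb TGATGCAA was at 16.3 in domains and 15.9 in runs of 1 to 3 bins, and CGATGCAA at 9.50 and 6.48. None of these sequences contains another. Inside the peaks, TTGCGCAA was in 6 of 47 untreated CEBPB peaks of domains (12.8%) against 4.18% of all autosomal ones, and in 4 of 32 after thapsigargin (12.5%) against 2.38%. TGATGCAA was in 8 of 267 ATF4 peaks of domains (3.00%) against 0.763% of all, and TGACGTCA in 2 (0.749%) against 1.90%. For CEBPB, TGATGCAA was in 4 of 47 untreated peaks of domains (8.51%) against 7.78% of all. After thapsigargin it was in 3 of 32 (9.38%) against 7.69%. Peaks in runs of 1 to 3 bins were not counted apart, so whether these shares are particular to domains was not tested. A match is a description of these letters and not of binding.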

How the data were processed

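Domains were computed from the deposited file of percent methylation, in which the authors gave 1 pooled percent per cytosine for both bisulfite libraries; 83035 of its lines were marked as other than CpG and left out. Bins were counted from position 0 and cytosines weighted equally. Per the submitters' processing notes, reads were mapped to mm9, with CASAVA 1.8 and Novoalign for bisulfite, CASAVA 1.8.2 and Bowtie for RNA, and CASAVA 1.7, BWA and SAMtools for immunoprecipitation. Neither the program behind the FPKM nor the peak caller is named in the sources used here. Of the listed cytosines 98.6% fell on a CpG of the mm9 reference; the cells are FVB/N, and printed sequences are those of the reference.

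FPKM values, their confidence limits and status were used as deposited by the authors. In both tables together there were 22334 autosomal entries, and 20902 (93.6%) matched a GENCODE gene by symbol, 135 through a synonym, leaving 20858 genes; a gene belonged to a domain if any annotated transcript started there. Failed status was given to 6 untreated and 95 thapsigargin entries. Scores of peaks were used as deposited by the authors, and a peak belonged to a domain if it overlapped by 1 base. Intervals are Wilson intervals of 95% and cover counting error only. With 1 library per group no test was possible. No replicate of RNA or binding was available to compare.

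The domain rule and the gene lists were chosen with earlier results of these data known. Named were the genes of the 10 longest domains, the 10 highest by untreated FPKM, the 8 largest increases and decreases, up to 4 of each list, and the 3 highest peaks of each list, without numbered gene models. Tnrc18, Myc and Sox10, and the levels of Ppp1r15b, were named after their values were seen. The CEBPB peaks of Nfil3 were named outside this rule. Copies were sought by aligning 100-base transcript windows, every 50 bases, with minimap2, allowing 3 differences. The domain caller was tested on simulated data.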

Additional observations from a re-analysis of the deposited data

How the results depend on the processing

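Of 84 alternative values 55 stayed within 1.5 times the count of domains or within the counting interval of the reported share, and 29 moved. The number of domains moved from 438 to 218 with bin means of 5% or less, 1440 with runs of 3 or more bins and 190 with runs of 5 or more. With these 3 settings in the same order, the untreated share of genes at FPKM 1 or more was 67.4%, 71.3% and 45.5%, and the thapsigargin share 64.8%, 68.3% and 45.0%. The untreated and thapsigargin shares were 29.4% and 27.5% for genes wholly inside a domain, 70.7% and 70.3% at FPKM 0.1 or more, and 47.3% and 42.6% at FPKM 5 or more. The share of genes higher after thapsigargin was 7.26% with runs of 3 or more bins, 22.2% with 5 or more, 43.8% for genes wholly inside (7 of 16), 7.21% without a filter on low values and 18.8% after centring; the lower share was 17.8% with runs of 5 or more bins, 12.5% for genes wholly inside, 18% without the filter and 13.8% after centring. Centring subtracted the median of all genes, -0.52. The ATF4 share was 54.1% with means of 5% or less and 55.6% with runs of 3 or more. With only the peaks scored at or above their list's median it was 25.6%, and the CEBPB shares were 5.94% untreated and 4.79% after thapsigargin. Filters and thresholds change which domains or genes enter, and other causes were not tested. Neither cutting bins from position 500 nor averaging strands first moved any of these values. No paired analysis was possible because each RNA and binding group has 1 library. The depth behind each percent is unknown, so a value of 0 at a cytosine may rest on few reads.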

Other observations

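Chromosome X was outside the rule. The same bins gave 30 unmethylated runs of at least 1 bin there and 1 run of 4 or more bins, against 14297 and 438 on the autosomes; the cells are of female mice.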
